A study of Mus musculus with 31 samples.

Results

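Cytochrome P450 genes of families 1, 2 and 3 were examined in livers of 14-day-old mouse pups. The members are all genes whose symbol begins with Cyp1, Cyp2 or Cyp3, a subfamily letter and a number, without those marked as pseudogenes by -ps, and with a mean of at least 1 CPM over all libraries, where CPM are a gene's counts relative to the library's scaled total. They number 50 of the 60 symbols that fit the name, in a table of 43629 genes. The other 10 had means between 0.177 and 0.94 CPM. The nearest member inside the limit was Cyp2c65 (1.52 CPM) and the nearest gene outside it was Cyp2t4 (0.94 CPM). The members comprised 14 Cyp2c, 9 Cyp3a, 8 Cyp2d, 4 Cyp2a, 3 Cyp2b, 3 Cyp2j and 2 Cyp1a genes, and 1 each of Cyp1b, Cyp2e, Cyp2f, Cyp2g, Cyp2r, Cyp2s and Cyp2u.

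RNA sequencing covered 31 livers of C57Bl/6J pups, all Dio1KO/Dio2KO, so that controls too lacked the type 1 and type 2 deiodinases, the enzymes that convert thyroxine (T4) to triiodothyronine (T3). The 5 control pups were Pax8Het, kept a thyroid and received vehicle. The other 4 groups were Pax8KO, which lack thyroid follicular cells: 5 received vehicle, 8 T4, 6 T3 and 7 both hormones (T4+T3), injected every other day from postnatal day 2. In the text below, "vehicle" means the Pax8KO vehicle group and "control" the Pax8Het vehicle group. The design places each hormone against vehicle and each group against pups with a thyroid, which addresses what T4 does where these enzymes cannot convert it. No dose is given in the sources used here.

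P450 enzymes are haem proteins of the endoplasmic reticulum that insert oxygen into lipophilic substrates, using electrons passed on by P450 oxidoreductase (Por). Families 1 to 3 carry most of the liver's oxidation of drugs, toxins, steroids and fatty acids. Their genes lie in clusters of close copies and are known targets of nuclear receptors and of the aryl hydrocarbon receptor, and several in mice switch between fetal, juvenile and adult forms or differ between adult males and females. Thyroid hormone receptors bind DNA at repeats of AGGTCA, the classic form being a direct repeat with a gap of 4 bases.

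Among the Cyp3a genes, a run of neighbours on chromosome 5 carried the largest differences. Their promoters are shown because these genes moved together while Cyp3a11, the next gene in the row, did not follow them. Each line gives the 250 bases before the RefSeq start (build GRCm38.p6, minus strand, printed 5′ to 3′ on the gene's strand), with AGGTCA in capitals where it occurs.
Cyp3a44 (chr5:145805875-145806124): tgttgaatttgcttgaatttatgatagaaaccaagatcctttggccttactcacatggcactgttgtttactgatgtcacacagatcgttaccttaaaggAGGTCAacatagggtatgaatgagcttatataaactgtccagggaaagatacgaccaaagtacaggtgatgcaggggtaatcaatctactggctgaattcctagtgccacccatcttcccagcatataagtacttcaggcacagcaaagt
Cyp3a41a (chr5:145720137-145720386): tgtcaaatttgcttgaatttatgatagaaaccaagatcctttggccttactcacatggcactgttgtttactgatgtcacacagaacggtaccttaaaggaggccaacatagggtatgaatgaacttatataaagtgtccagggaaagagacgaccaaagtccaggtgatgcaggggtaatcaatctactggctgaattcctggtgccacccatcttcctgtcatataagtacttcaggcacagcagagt
Cyp3a16 (chr5:145469724-145469973): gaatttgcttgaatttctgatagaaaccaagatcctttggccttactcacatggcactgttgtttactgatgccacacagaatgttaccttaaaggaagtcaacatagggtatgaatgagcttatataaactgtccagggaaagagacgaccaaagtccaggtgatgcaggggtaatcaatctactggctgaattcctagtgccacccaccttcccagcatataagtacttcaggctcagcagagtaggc
Cyp3a11 (chr5:145879855-145880104): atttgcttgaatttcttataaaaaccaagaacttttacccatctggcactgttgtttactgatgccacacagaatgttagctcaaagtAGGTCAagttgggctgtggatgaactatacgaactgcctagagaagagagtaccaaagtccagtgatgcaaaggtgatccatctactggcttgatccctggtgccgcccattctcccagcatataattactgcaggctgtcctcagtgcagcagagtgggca
The Cyp3a41b promoter (chr5:145584731-145584980) matched that of Cyp3a41a at 99.6% of aligned bases. Identity was 94.4% between Cyp3a41a and Cyp3a44, 95.9% between Cyp3a44 and Cyp3a16, and 80.9% between Cyp3a44 and Cyp3a11. AGGTCA on the plus orientation began at position -150 from the start of Cyp3a44 and at -162 from that of Cyp3a11, and it was not in the windows of Cyp3a16, Cyp3a41a or Cyp3a41b. Both strands were searched, and overlaps between motifs were allowed. AGGTCA occurred in 13 of 45 promoters of the 43 members found in the RefSeq table, and in 14.02% of all 32851 promoters of that length. Direct repeats of AGGTCA with any 4 or any 3 bases between the copies occurred in 0 member windows, against 0.02% and 0.01% of all promoters. GCGTG, the core bound by the aryl hydrocarbon receptor, occurred in 5 of 45 member promoters (Cyp1a1, Cyp1b1, Cyp2b10, Cyp2c68 and Cyp2j9) and in 28.16% of all.

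The libraries held 4383769 to 7158919 counts, with medians of 5322022 in vehicle, 5340700 in controls, 5298959 after T4, 6145942 after T3 and 6424333 after T4+T3. The members together took 0.584% to 0.804% of a library's counts. The deposited values start at 1 in every library, and no gene longer than 500 bases averaged above 1.985 counts per exonic base. The highest genes may thus be compressed. Whether they are was not tested, but calls with an assumed ceiling corrected are given below. The targeted Dio1 had 42 to 1504 counts per library, so its transcript was still counted, and where the deletion lies is not given in the sources used here. Hepatocyte marker genes (Alb, Ttr, Apoa1, Apob, Serpina1a, Cps1 and Hnf4a) summed to 4390 to 6697 CPM in every library. In 12 libraries pancreatic acinar or skeletal muscle genes averaged 5 CPM or more (1 control, 2 vehicle, 3 T4, 2 T3 and 4 T4+T3 libraries). The 8 acinar genes summed to 3.67 to 83.1 CPM in controls, 4.05 to 219 in vehicle, 2.29 to 12.9 after T4, 2.90 to 14.9 after T3 and 3.66 to 199.9 after T4+T3, and 6 of 7 tested fell after T3. The 7 muscle genes summed to 2.43 to 3.22, 2.22 to 9.76, 2.78 to 227, 5.51 to 383 and 2.57 to 82.5 CPM in the same order, and 5 of 6 tested rose after T3. All T3 and T4+T3 animals had numbers from 54 to 85, but only 1 control, 2 vehicle and 5 T4 animals did. By Xist and the Y-linked genes, 16 pups were male and 15 female, and 4 of 20 labelled sexes differed from these genes. Females were 4 of 5 controls and 5 of 6 T3 pups, and 2 each of the vehicle, T4 and T4+T3 pups. In bulk liver, fewer cells of a type and less RNA per cell cannot be told apart.

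Of the 50 members, 49 passed the filter on low counts, and Cyp2c65 did not. Calls below rest on edgeR's quasi-likelihood test with a Benjamini-Hochberg adjusted p under 0.05 over 17057 genes. Vehicle pups differed from controls in 13 members, where 9.63% of all tested genes were called. Of these, 7 were higher (4.92% of all genes) and 6 lower (4.71%). T3 against vehicle gave 15 calls (6.77% of all genes), 5 higher (3.53%) and 10 lower (3.24%). T4+T3 against vehicle gave 24 calls (15.8%), 7 higher (7.33%) and 17 lower (8.45%). T4 against vehicle gave 2 calls (0.41%), with Cyp3a44 higher (0.211%) and Cyp2c38 lower (0.199%). In these comparisons the called members were 26.5%, 30.6%, 49.0% and 4.1% of the 49. These hormone comparisons share the vehicle pups, and the same pups enter the comparison with controls with the opposite sign. The median log2 difference over the 49 members was 0.13 in vehicle against control, -0.11 after T4, -0.22 after T3 and -0.20 after T4+T3, while over all genes it lay within 0.011 of 0.

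The counts of calls depended on which libraries entered. Among the animals numbered 54 to 85, 0 members were called in vehicle against control (1 control pup), 0 after T4, 2 after T3 and 8 after T4+T3, where 3, 8, 167 and 794 of 18485 genes were called. All 13 calls in vehicle against control and both after T4 were thus lost there. Those that stood were Cyp3a44 and Cyp2c67 after T3, and Cyp3a44, Cyp2r1, Cyp2c38, Cyp2c67, Cyp2d9, Cyp2d12 and Cyp2b10 after T4+T3, and Cyp2b13 was called in addition. Without the 12 libraries with acinar or muscle genes, 5, 0, 2 and 7 members were called in those comparisons, where 689, 1, 83 and 685 of 16859 genes were called. Those that stood were Cyp2c38, Cyp2c67, Cyp3a41a, Cyp3a41b and Cyp3a44 in vehicle against control, and Cyp3a44 and Cyp2c67 after T3. After T4+T3 they were Cyp3a44, Cyp2r1, Cyp2c38, Cyp2c67, Cyp2d9, Cyp2d12 and Cyp2d26. In each of these comparisons, a member's call named for neither set was lost in both, and both sets hold fewer libraries. Vehicle against control fell to 8 calls without control animal 49, 7 without control animal 50 and 8 without vehicle animal 38. T3 against vehicle fell to 9 without vehicle animal 37, 8 without vehicle animal 38 and 9 without T3 animal 60. T3 against vehicle also gave 8 calls with sex in the fit, 6 with only these groups in the fit and 7 with the log2 library total in the fit, where 618 of 17057, 275 of 16182 and 524 of 17057 genes were called.

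Against controls, the hormone groups differed in few members. T4 pups differed from controls in 4 of 49 members (3.54% of all genes): Cyp2c67 and Cyp2c54 were higher (1.83%) and Cyp2c70 and Cyp2r1 lower (1.71%). The calls of Cyp2c67, Cyp2c54, Cyp2c70 and Cyp2r1 were lost in 1, 14, 5 and 12 of 27 other settings. Among animals 54 to 85, with 1 control, 0 of these were called. T3 and T4+T3 pups differed from controls in 0 members by edgeR (0.211% of all genes, 0.17% higher and 0.041% lower, and 0.0%), with 10 and 7 at an unadjusted p under 0.05, and DESeq2 called 1 (Cyp1b1) and 0. T4+T3 differed from T3 in 0 members (0.0117%), with 7 at an unadjusted p under 0.05 and 0 by DESeq2. T4 and T3 themselves differed in 1 member, Cyp2c67, which was higher after T4 (0.551% of all genes, 0.158% higher and 0.393% lower).

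**Figure D1:**
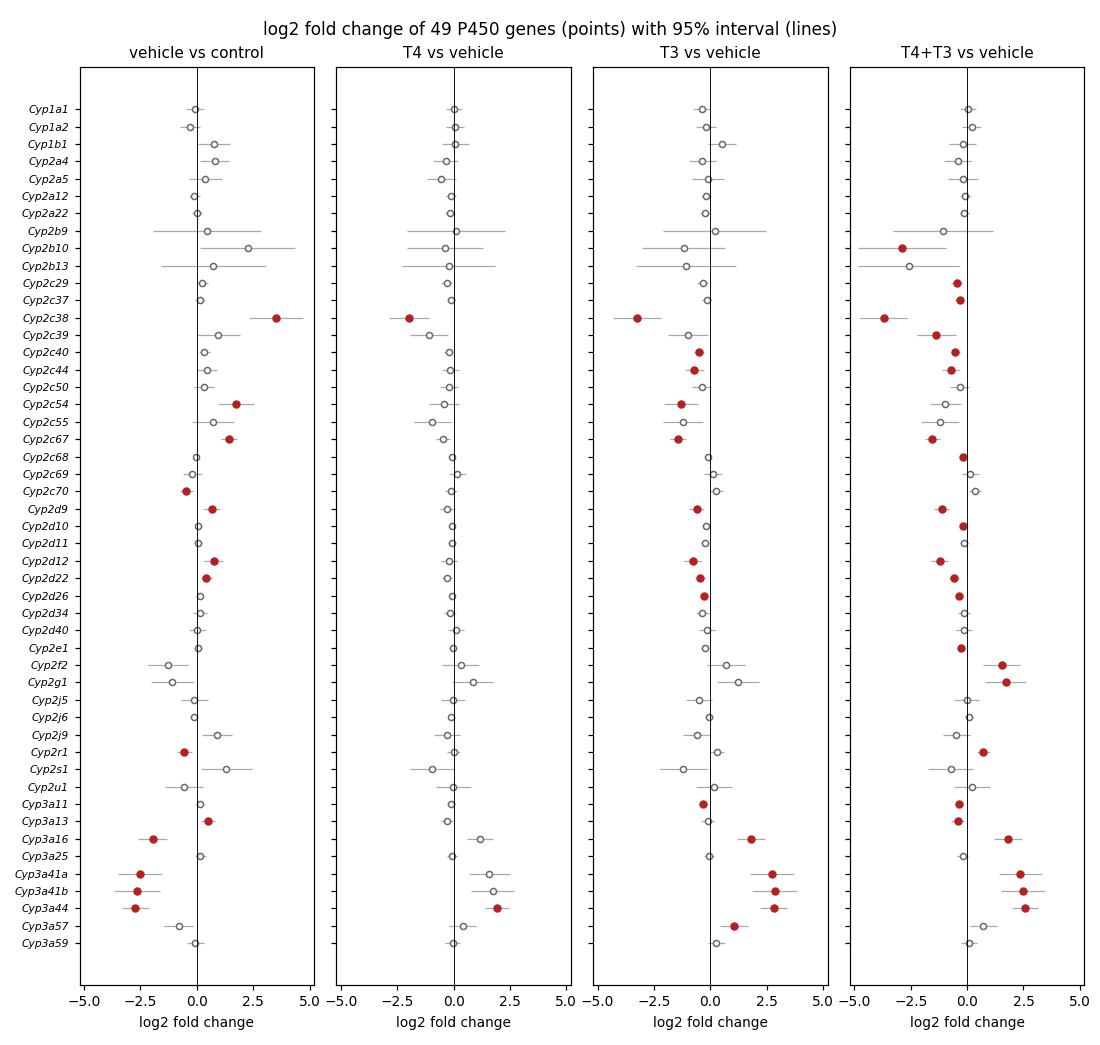
The log2 fold change of each of the 49 tested members (x axis; points, with lines for the 95% interval) is drawn in 4 comparisons, with filled points for an adjusted p under 0.05. The filled points number 13, 2, 15 and 24 from left to right, and Cyp3a16, Cyp3a41a, Cyp3a41b and Cyp3a44 near the foot lie left of 0 in vehicle against control and right of 0 in the hormone panels.

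The Cyp3a subfamily hydroxylates steroids, bile acids and many drugs. Its genes lie on chromosome 5 (GENCODE M21, mm10), with Cyp3a57, Cyp3a16, Cyp3a41b, Cyp3a41a, Cyp3a44 and Cyp3a11 next to each other between 145345279 and 145879964. Cyp3a16 is known as a form of fetal and juvenile liver, Cyp3a41a, Cyp3a41b and Cyp3a44 as genes with higher levels in adult females, and Cyp3a11 as the main adult form.

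Cyp3a44 had 162, 143, 172, 199.7 and 128 CPM in the controls, in order of animal number. In the vehicle pups it had 17.3, 17.4, 21.01, 44.9 and 20.8 CPM. The T4 pups ranged from 31.9 to 146 CPM (median 87.4), the T3 pups from 159 to 187 (median 166) and the T4+T3 pups from 95.5 to 216 (median 133). Vehicle pups did not overlap with controls, T3 or T4+T3 pups, and 1 T4 pup fell among them. Cyp3a44 was lower in vehicle than in control by -2.72 on the log2 scale (SE 0.30, adjusted p = 9.88e-07 by edgeR's quasi-likelihood test), 6.60-fold. It rose by 1.93 after T4 (SE 0.28, adjusted p = 4.75e-04, 3.81-fold), by 2.80 after T3 (SE 0.30, adjusted p = 6.35e-07, 6.98-fold) and by 2.58 after T4+T3 (SE 0.29, adjusted p = 7.93e-07, 5.97-fold). Among animals 54 to 85 the log2 values were -1.98 (adjusted p = 0.264), 1.32 (0.348), 2.37 (0.011) and 2.15 (0.006). Without the libraries with acinar or muscle genes they were -2.57, 1.70, 2.65 and 2.27, with the T4 value no longer called (adjusted p = 0.30).

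Cyp3a41a and Cyp3a41b share 93.7% of the 50-base windows of the Cyp3a41a transcript, so how their reads were split is uncertain, and they are best read as a pair. Cyp3a41a had 126, 39.3, 88.9, 124 and 29.2 CPM in controls and 11.5, 13.3, 18.9, 15.3 and 12.2 CPM in vehicle pups. After T4 it ranged from 16.1 to 67.2 CPM (median 45.3), after T3 from 53.3 to 137 (median 88.8) and after T4+T3 from 24.9 to 169 (median 72.9). Every control, T3 and T4+T3 pup lay above every vehicle pup, and the spread within groups was wide: 3 T4+T3 pups had 24.9 to 27.0 CPM. The log2 difference was -2.52 in vehicle against control (SE 0.50, adjusted p = 0.00177, edgeR), 2.74 after T3 (SE 0.49, adjusted p = 0.00110) and 2.37 after T4+T3 (SE 0.48, adjusted p = 0.00120). After T4 it was 1.59 (SE 0.47, adjusted p = 0.115), which was not called by edgeR but was by DESeq2. Cyp3a41b gave -2.67, 2.85, 2.48 and, for T4, 1.73 (adjusted p = 0.105). Neither was called among animals 54 to 85, where Cyp3a41a had -0.80, 2.49 and 2.12 (adjusted p = 0.902, 0.0976 and 0.0897). Without the libraries with acinar or muscle genes Cyp3a41a had -2.55 (adjusted p = 0.0242), 2.64 (0.0548) and 1.40 (0.198), so that only the first value was called.

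Cyp3a16 had 242, 209.7, 251, 265 and 226 CPM in controls. Vehicle pups had 28.6, 31.5, 23.6, 179 and 44.7 CPM, animal 67 standing apart from the other 4. T3 pups ranged from 194 to 249 CPM (median 212), T4+T3 pups from 195 to 268 (median 207) and T4 pups from 87.0 to 184 (median 141). Cyp3a16 was lower in vehicle by -1.95 (SE 0.33, adjusted p = 3.46e-04, edgeR), and rose by 1.82 after T3 (SE 0.32, adjusted p = 9.22e-04) and 1.81 after T4+T3 (SE 0.31, adjusted p = 2.42e-04). The T4 value was 1.17 (SE 0.30, adjusted p = 0.0739) and not called. Without vehicle animal 67 the 3 called values became -2.89, 2.76 and 2.75. That animal also had the highest Cyp3a44 of the vehicle pups but not the highest Cyp3a41a. Among animals 54 to 85, where it is 1 of 2 vehicle pups, none was called (-1.18, 1.11 and 1.11; adjusted p = 0.627, 0.196 and 0.124). Nor was any without the libraries with acinar or muscle genes (-1.66, 1.52 and 1.47; adjusted p = 0.0527, 0.158 and 0.0931).

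**Figure D2:**
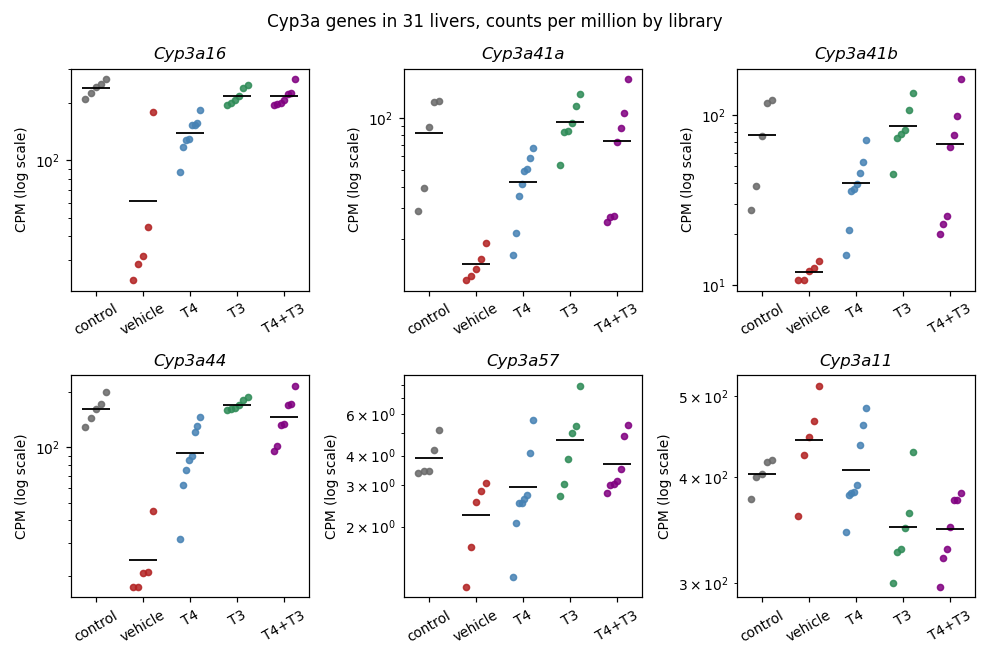
CPM on a log axis is plotted for 6 Cyp3a genes, with 1 point per library and a bar at the group mean, for the 5 groups on the x axis. Vehicle pups have the lowest group mean for each gene but Cyp3a11, for which they have the highest, and animal 67 stands apart in Cyp3a16 at 179 CPM.

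T4 pups lay below T3 pups in these genes, but no difference passed the test. The log2 difference of T4 from T3 was -0.87 for Cyp3a44 (95% interval -1.33 to -0.42, adjusted p = 0.0740), -1.15 for Cyp3a41a (-1.90 to -0.40, adjusted p = 0.163) and -0.65 for Cyp3a16 (-1.17 to -0.13, adjusted p = 0.263). The groups did not overlap for Cyp3a44 or Cyp3a16. DESeq2 called Cyp3a44 here. In the fit of all 31 libraries, the difference that T4 made to Cyp3a44 was not the same with and without T3. T4 on top of T3 gave -0.23 and T4 alone 1.93, a difference of -2.16 (SE 0.36, adjusted p = 0.0157, edgeR interaction term). Of all genes 0.135% were called by that term, 0.0997% positive and 0.0352% negative. That term was chosen after the data were seen, and no other member passed it. It was not fitted in any other setting. The value for T4 alone was not called among animals 54 to 85 or without the libraries with acinar or muscle genes.

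The remaining Cyp3a genes went other ways. Cyp3a57, at 1.11 to 7.92 CPM the lowest of the cluster, rose by 1.06 after T3 (SE 0.31, adjusted p = 0.0378), a call lost in 14 of 24 other settings. Cyp3a11 had 360 to 514 CPM in vehicle pups, 300 to 429 after T3 and 296 to 383 after T4+T3, and fell by 0.34 (adjusted p = 0.0228) and 0.35 (adjusted p = 0.00715). With the log2 library total in the fit these falls were -0.14 and -0.08 and not called, nor were they among animals 54 to 85 or without the libraries with acinar or muscle genes. Cyp3a13, which lies apart at 137892932 to 137921619, averaged 268 CPM in vehicle and 189 CPM in controls, higher by 0.50 (SE 0.15, adjusted p = 0.0362), and fell by 0.42 after T4+T3 (adjusted p = 0.0414). These calls were lost in 11 of 24 and 17 of 26 other settings. Cyp3a25 and Cyp3a59 were not called in any of these 4 comparisons. Transcripts of Cyp3a11 and Cyp3a41a are 94.5% identical and those of Cyp3a16 and Cyp3a41a 92.2%. Of the 50-base windows, 14.8% of those of Cyp3a11 and 10.7% of those of Cyp3a16 occur in another gene. For Cyp3a44 the share is 26.5%, with 11.5% in Cyp3a41a, so how some of its reads were split is uncertain.

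Over all 31 libraries, the genes whose CPM followed Cyp3a44 most closely were its neighbours Cyp3a41a, Cyp3a41b and Cyp3a16, with Spearman's rho of 0.90, 0.89 and 0.86 among 13934 genes. These correlations describe libraries that share group differences and reads between close copies.

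The Cyp2c genes, known for fatty acid epoxidation and drug and steroid oxidation, had 8 of the 17 members that fell after T4+T3. Of 13 tested, 3 were higher and 1 lower in vehicle against control (4.92% and 4.71% of all genes), and 9 were not called. After T3 5 fell (3.24% of all genes), after T4+T3 8 fell (8.45%) and after T4 1 fell (0.199%), and 0 rose. Cyp2c38 (chr19:39389556-39463075) is an arachidonic acid oxidase of low level. It had 1.10, 0.846, 0.593, 0.203 and 0.953 CPM in controls, which is 1 to 6 deposited counts, and 10.6, 16.6, 5.52, 3.13 and 7.83 CPM in vehicle pups. After T4 it ranged from 0.482 to 6.31 CPM, after T3 from 0.151 to 1.84 and after T4+T3 from 0.334 to 1.60. Vehicle pups lay above all control, T3 and T4+T3 pups. The log2 differences were 3.50 in vehicle against control (SE 0.61, adjusted p = 4.43e-04, edgeR), -1.96 after T4 (SE 0.45, adjusted p = 0.0455), -3.24 after T3 (SE 0.54, adjusted p = 6.03e-04) and -3.70 after T4+T3 (SE 0.53, adjusted p = 2.69e-05). With 1 subtracted from every count the T4 difference was -2.05 and no longer called (adjusted p = 0.0718), as also with sex in the fit (adjusted p = 0.0732). Among animals 54 to 85 the value in vehicle against control was 2.13 (adjusted p = 0.614), and after T3 -2.21 (0.0584). The T4 call was lost without any 1 of 10 libraries (vehicle 37, 38, 55 and 2019, and T4 43, 54, 58, 69, 70 and 71).

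Cyp2c67 (chr19:39608842-39649051), of the same cluster, had 91.4, 83.3, 58.9, 49.7 and 90.9 CPM in controls and 192, 240.1, 134, 232 and 215 CPM in vehicle pups. The T4 pups had 112 to 185 CPM (median 143), the T3 pups 56.8 to 93.6 (median 75.3) and the T4+T3 pups 54.4 to 96.6 (median 68.3). T4 pups lay above all T3, T4+T3 and control pups. Cyp2c67 was higher in vehicle than in control by 1.44 (SE 0.19, adjusted p = 1.03e-05, edgeR) and fell by 1.44 after T3 (SE 0.17, adjusted p = 6.66e-06) and 1.55 after T4+T3 (SE 0.17, adjusted p = 4.60e-07). After T4 the difference was -0.47 (95% interval -0.78 to -0.15, adjusted p = 0.183). T4 pups were higher than T3 pups by 0.97 (SE 0.16, adjusted p = 0.00263), and than controls by 0.97 (SE 0.17, adjusted p = 0.00177). Among animals 54 to 85 the calls in vehicle against control (0.99, adjusted p = 0.490) and in T4 against control (0.61, adjusted p = 0.876) were lost. The T4 against T3 call was lost only without the 12 libraries with acinar or muscle genes (adjusted p = 0.118). Of its 50-base windows 52.8% occur in another gene, 40.0% in Cyp2c40, so how reads were split between them is uncertain.

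Cyp2c54 averaged 205 CPM in vehicle pups (156 to 281) and 61.0 CPM in controls (33.1 to 103), a log2 difference of 1.75 (SE 0.40, adjusted p = 0.00633). It fell by 1.30 after T3 (SE 0.37, adjusted p = 0.0329) and had -0.97 after T4+T3 (adjusted p = 0.0620). The vehicle call was lost among animals 54 to 85 (0.58, adjusted p = 0.919) and without the libraries with acinar or muscle genes. Cyp2c40, which also oxidises arachidonic acid, fell by 0.49 and 0.52 after T3 and T4+T3 (adjusted p = 0.0108 and 0.00227). Of its 50-base windows 72.1% occur in another gene, 42.1% in Cyp2c69, so how its reads were split is uncertain. Both calls of Cyp2c40 were lost among animals 54 to 85 (adjusted p = 0.208 and 0.106), without the libraries with acinar or muscle genes (0.189 and 0.0543) and with the log2 library total in the fit (0.0769 and 0.0510). Cyp2c44, which makes epoxides of arachidonic acid, fell by 0.70 in both (adjusted p = 0.0416 and 0.0191). Cyp2c29, a drug-inducible gene, fell by 0.45 after T4+T3 (adjusted p = 0.0110). The T4+T3 calls of Cyp2c44 and Cyp2c29 were lost in the same 3 settings: the adjusted p was 0.262, 0.330 and 0.145 for Cyp2c44 and 0.189, 0.0883 and 0.465 for Cyp2c29. The T4+T3 call of Cyp2c44 was also lost with no filter on low counts. The T3 calls of Cyp2c44 and Cyp2c54 were lost in 19 and 13 of 25 other settings.

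Cyp2c70 took the other direction. This enzyme makes muricholic acids, which are bile acids of mice. It had 391.6, 263, 354, 342 and 362 CPM in controls and 258, 232, 273, 229 and 251 CPM in vehicle pups, and animal 47 of the controls overlapped with these. The difference was -0.46 (SE 0.15, adjusted p = 0.0493, edgeR), lost without 9 of the 10 single libraries. After T4+T3 it was 0.35 (adjusted p = 0.0873), and with the ceiling on counts corrected over exonic bases 0.55 (adjusted p = 0.0266). In T4 pups (157 to 332 CPM) Cyp2c70 was lower than in controls by -0.57 (SE 0.13, adjusted p = 0.0172), a call lost in 5 of 27 other settings.

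Genes whose CPM followed Cyp2c67 most closely were Abcc3 (rho 0.93), an efflux pump for bile acid conjugates, Rpl22 (0.89) and Enpep (0.88). For Cyp2c38 they were Bag6, Echdc2 and Casp6 (0.80 to 0.81).

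**Figure D3:**
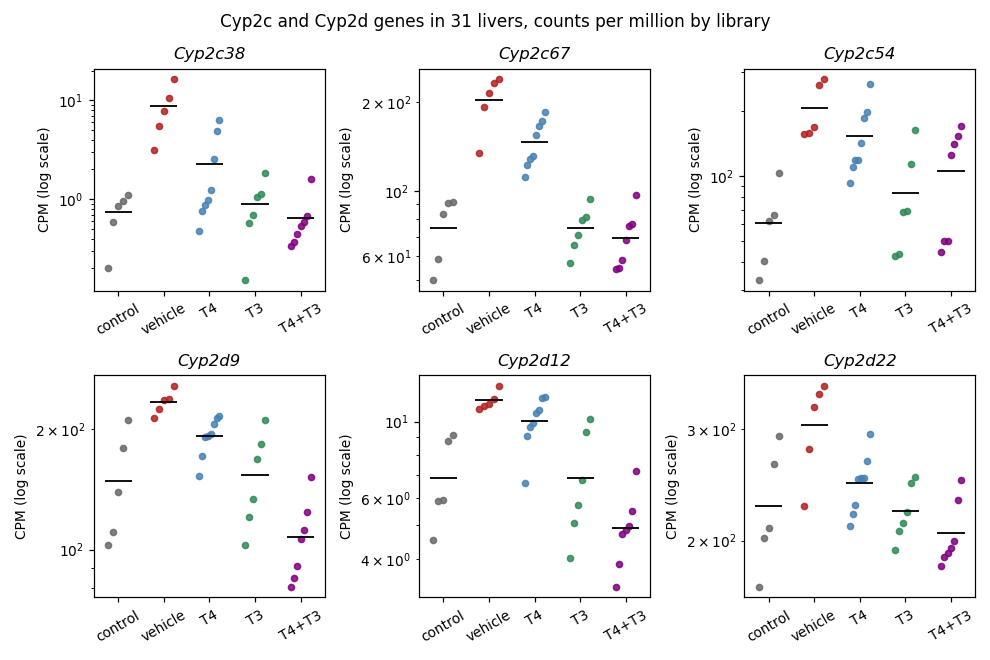
CPM on a log axis is plotted for 3 Cyp2c and 3 Cyp2d genes, with 1 point per library and a bar at the group mean. Vehicle pups have the highest mean of the 5 groups in each panel, and for Cyp2c67 the T4 pups (112 to 185 CPM) lie above the T3 pups (56.8 to 93.6 CPM).

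The Cyp2d genes, on chromosome 15, oxidise basic drugs and steroids. All 8 had positive log2 values in vehicle against control and negative values after T3 and T4+T3, with medians of 0.129, -0.327 and -0.285. Of the 8, 3, 4 and 5 were called (4.92% of all genes higher, 3.24% and 8.45% lower). Between 6.1% (Cyp2d22) and 39.8% (Cyp2d10) of their 50-base windows occur in another gene, so how some reads were split is uncertain. Cyp2d9, the steroid 16-alpha-hydroxylase known for higher levels in adult males, had 211, 139.6, 103, 111 and 179.5 CPM in controls and 237, 257, 225, 238 and 213 CPM in vehicle pups. It ranged from 152 to 216 CPM after T4, 103 to 211 after T3 and 80.5 to 152 after T4+T3. Every vehicle pup lay above every control, T3 and T4+T3 pup. Cyp2d9 was higher in vehicle by 0.65 (SE 0.18, adjusted p = 0.0233, edgeR), and fell by 0.61 after T3 (SE 0.17, adjusted p = 0.0321) and by 1.13 after T4+T3 (SE 0.17, adjusted p = 4.51e-05). Cyp2d12 was higher in vehicle by 0.74 and fell by 0.75 and 1.22 (adjusted p = 0.0286, 0.0258 and 1.37e-04). Cyp2d22, a relative of the human drug-metabolising CYP2D6, was higher by 0.42 and fell by 0.45 and 0.57 (adjusted p = 0.0330, 0.0222 and 0.00130). The T3 calls of Cyp2d9, Cyp2d12 and Cyp2d22 were lost in 14, 10 and 10 of 25 other settings, and those in vehicle against control in 6, 7 and 11 of 24. The T4+T3 calls of Cyp2d9 and Cyp2d12 stood in all 26, and that of Cyp2d22 in 24. After T3, as after T4+T3, the hepatocyte markers were lower too: Alb and Apob of the 7 listed fell after T3, and the marker sum was 4738 to 5850 CPM against 6228 to 6697 CPM in vehicle, without overlap. Their part in the falls of Cyp2c, Cyp2d and Cyp3a11 was not tested.

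Per kilobase of exon, the highest members were Cyp2d26 (196 CPM), Cyp2e1 (193), Cyp2c37 (176), Cyp2c68 (150.2), and Cyp2c70 and Cyp3a25 (both 142). Several of these fell slightly after T4+T3: Cyp2d26 by 0.37 (adjusted p = 2.71e-04, and 0.0548 among animals 54 to 85), Cyp2c37 by 0.33 (adjusted p = 0.0211), Cyp2e1 by 0.26 (adjusted p = 0.0325) and Cyp2c68 by 0.18 (adjusted p = 0.0271). Cyp2e1, which oxidises ethanol and small solvents, had 434 to 491 CPM in vehicle pups and 339 to 431 CPM after T4+T3. T3 and T4+T3 libraries had more counts than vehicle libraries, and calls of this size changed with the count ceiling and the library total. Cyp2d26 and Cyp2e1 averaged 1.11 and 1.09 counts per exonic base. With the ceiling of 2 counts per base corrected, 8 members were higher and 12 lower after T4+T3 in place of 7 and 17, and Cyp2c37, Cyp2c68, Cyp2d10, Cyp2e1 and Cyp3a13 were no longer called. With the log2 library total in the fit, 8 were higher and 6 lower, and Cyp2e1 had -0.04. The hepatocyte markers Alb, Apoa1, Apob and Serpina1a, 4 of 7 listed, fell as well after T4+T3, by 0.21 to 0.36, and the marker sum was 6228 to 6697 CPM in vehicle and 4390 to 5809 CPM after T4+T3. Their part in the result was not tested.

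Cyp2f2 and Cyp2g1 on chromosome 7 rose after T4+T3. Cyp2f2, known from lung club cells and periportal hepatocytes, bioactivates naphthalene. It had 170, 42.0, 129, 122 and 125 CPM in controls and 62.6, 33.3, 72.1, 29.5 and 46.6 CPM in vehicle pups. After T4 it ranged from 22.5 to 136 CPM (median 39.9), after T3 from 39.4 to 157 (median 57.9) and after T4+T3 from 70.2 to 202 (median 142). The rise after T4+T3 was 1.53 (SE 0.42, adjusted p = 0.0135, edgeR), 2.88-fold, and vehicle and T4+T3 pups overlapped by 1 library each. Cyp2g1, known as an olfactory P450, had 2.21 to 9.76 CPM in vehicle pups and 9.67 to 27.7 CPM after T4+T3, and rose by 1.71 (SE 0.46, adjusted p = 0.0115). Neither was called against control in vehicle pups (-1.27, adjusted p = 0.0678, and -1.08, adjusted p = 0.166). Both calls after T4+T3 were lost among animals 54 to 85 (1.49, adjusted p = 0.151, and 1.60, adjusted p = 0.204) and without the libraries with acinar or muscle genes (1.76, adjusted p = 0.0984, and 1.51, adjusted p = 0.211). The club cell marker Scgb3a2 was at the lowest deposited count in every library, and the sum of both club cell markers was 0.293 to 2.42 CPM.

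Cyp2r1, the vitamin D 25-hydroxylase of the endoplasmic reticulum, had 17.6, 22.7, 18.6, 20.1 and 22.7 CPM in controls and 15.9, 16.2, 15.5, 10.7 and 11.5 CPM in vehicle pups, without overlap. It ranged from 9.47 to 17.9 CPM after T4, 14.5 to 20.2 after T3 and 17.3 to 28.9 after T4+T3. The vehicle value was lower by -0.55 (SE 0.16, adjusted p = 0.0321, edgeR), lost without 5 of 10 single libraries and among animals 54 to 85 (-0.82, adjusted p = 0.513). After T4+T3 Cyp2r1 rose by 0.72 (SE 0.15, adjusted p = 0.00169), and this call stood in all 26 other settings. After T3 the value was 0.31 (adjusted p = 0.249) and after T4 0.00 (95% interval -0.29 to 0.29).

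**Figure D4:**
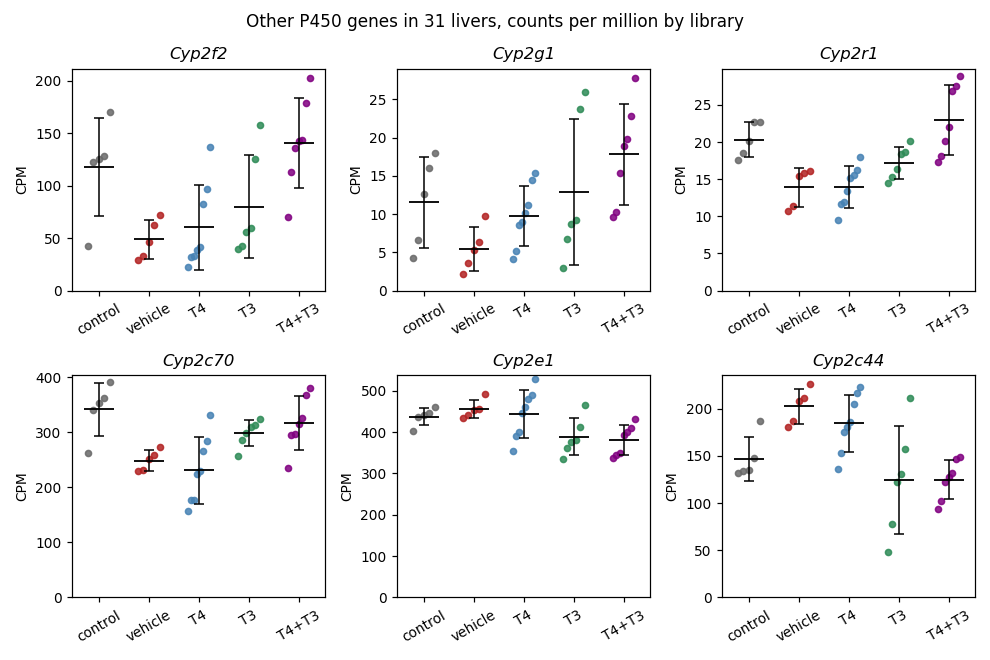
CPM on linear axes from 0 is plotted for 6 members of different subfamilies, with 1 point per library, a bar at the group mean and an error bar of 1 SD. Cyp2f2, Cyp2g1 and Cyp2r1 have their lowest group means in vehicle or T4 pups, and Cyp2e1 stays between 334 and 527 CPM in all libraries.

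The Cyp1 genes, classic targets of the aryl hydrocarbon receptor, were not called in any of these 4 comparisons. Cyp1a2, which oxidises caffeine and aromatic amines, averaged 314 CPM in controls (SD 41.3, n = 5), 255 in vehicle (SD 60.9, n = 5) and 292 after T4+T3 (SD 46.8, n = 7). Its log2 difference in vehicle against control was -0.30 (95% interval -0.76 to 0.16). Cyp1a1 lay between 6.52 and 15.7 CPM in all libraries, and Cyp1b1 averaged 2.26 CPM in controls and 3.82 CPM in vehicle. Of 4 other receptor targets tested (Tiparp, Nqo1, Ahrr and Ugt1a6a), 0 were called in the 4 comparisons by edgeR, and 0 had an unadjusted p under 0.05. The 4 Cyp2a genes, coumarin and steroid hydroxylases, and the 3 Cyp2j genes, epoxygenases, were not called either. Cyp2a5 spread widely within groups, from 79.7 to 384 CPM in vehicle pups alone. Cyp2j5 had 165 CPM on average after T3 and 237 CPM in vehicle (-0.52, adjusted p = 0.310). Cyp2u1, a fatty acid hydroxylase, stayed at means of 3.46 to 5.14 CPM.

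The Cyp2b genes, classic targets of the constitutive androstane receptor (CAR, gene Nr1i3), varied between animals of every group. Cyp2b9 was at 0.639 to 26.9 CPM in 16 libraries and at 130.5 to 323 CPM in the other 15, a gap of 4.85-fold. The high set held 2 of 5 controls, 2 of 5 vehicle, 5 of 8 T4, 4 of 6 T3 and 2 of 7 T4+T3 pups. The controls had 5.69, 207, 10.7, 4.26 and 243 CPM and the vehicle pups 19.3, 2.02, 323, 275 and 26.9 CPM. The same 15 libraries held the 15 highest values of Cyp2b13 (21.6 CPM and above, against 10.8 and below), and 14 of them the highest of Cyp2b10. Of the 50-base windows, 10.8% of those of Cyp2b13 occur in Cyp2b9 and 7.8% of those of Cyp2b10 in Cyp2b13. Transcripts of Cyp2b13 and Cyp2b9 are 91.9% identical. How some reads were split between these genes is thus uncertain, and its part in their agreement was not tested. The within-group SD was 2.60 for Cyp2b9 and 2.55 for Cyp2b13 on the log2 scale, and its median was 0.37 over the members and 0.22 over 17535 genes of at least 1 CPM. Of the high libraries, 10 were among the 16 male and 5 among the 15 female pups. Cyp2b9 and Cyp2b13 are known for higher levels in adult females. Here the sex coefficient, a test added after the data were seen, was 1.77 toward males for Cyp2b9 (adjusted p = 0.947), and 0 of 49 members were called by sex (0.0704% of all genes), with 4 at an unadjusted p under 0.05.

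Cyp2b10, the standard CAR target, was lower after T4+T3 than in vehicle by -2.89 (SE 0.99, adjusted p = 0.0452, edgeR). Vehicle animal 55 had 42.0 CPM and the other 4 vehicle pups 1.21 to 2.76 CPM, while T4+T3 pups had 0.149 to 4.57 CPM, so the groups overlapped. Without vehicle animal 55 the value was -0.66 (adjusted p = 0.719). The call was lost without 6 of 12 single libraries in all, and with the log2 library total in the fit the value was -1.25 (adjusted p = 0.568). Cyp2b9 (-1.07, adjusted p = 0.564) and Cyp2b13 (-2.59, adjusted p = 0.128) were not called in the fit of all libraries. The calls of Cyp2b10 and Cyp2b13 among animals 54 to 85 (-4.03 and -3.81) rest on vehicle animals 55 and 67. Both of these pups are in the high Cyp2b9 set.

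**Figure D5:**
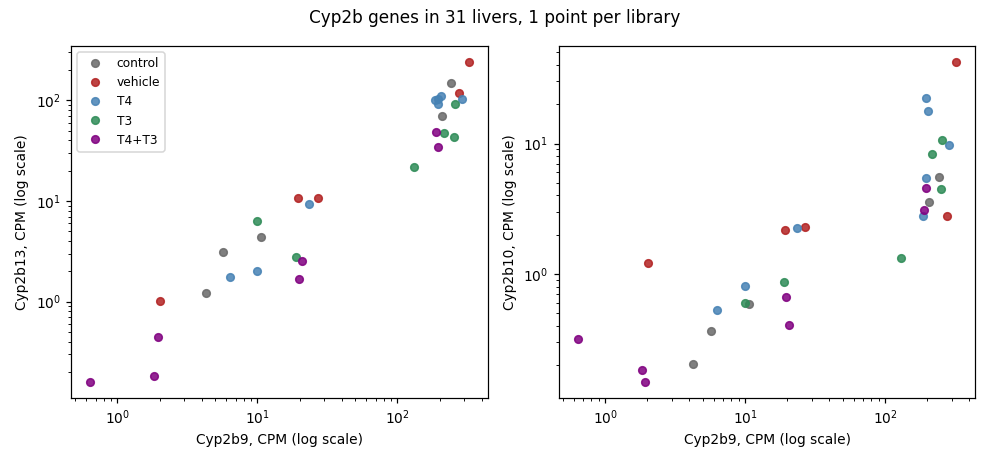
Cyp2b13 (left) and Cyp2b10 (right) are plotted against Cyp2b9, in CPM on log axes, with 1 point per library coloured by group. The 15 libraries with Cyp2b9 at 130.5 CPM or above lie apart at the right, and every group has points on both sides of the gap.

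Cyp2c65 was left untested. It had 11.9 CPM in vehicle animal 37 and 18.6 CPM in T4+T3 animal 78, and at most 2.10 CPM in any other library. Those libraries also had the highest acinar gene means, 26.6 and 26.0 CPM. Their part in the level of Cyp2c65 was not tested.

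Regulators of P450 genes formed a list of 35 genes, all tested. Calls of genes outside the P450 members, here and below, come from the fit of all 31 libraries. Whether each stood in the other settings is not given here. Without the 12 libraries with acinar or muscle genes, 689 of 16859 genes were called in vehicle against control. After T3 83 were, and after T4+T3 685, while all libraries gave 1642, 1155 and 2692 of 17057. In vehicle against control 2 of the 35 regulators were higher and 3 lower, 14.3% against 9.63% of all genes. The median of the 35 was -0.06 against 0.01 over all genes. Esr1, the estrogen receptor, averaged 178 CPM in controls and 80.2 CPM in vehicle (-1.15, adjusted p = 2.94e-06), and rose by 1.04 after T3 and 1.29 after T4+T3. Stat5a, a transducer of growth hormone signals, averaged 84.2 and 35.4 CPM (-1.25, adjusted p = 2.00e-06), and rose by 0.92 and 1.19. Thra, a thyroid hormone receptor, was higher in vehicle by 0.37 (adjusted p = 0.00123) and fell by 0.37 and 0.34. Nr1i3 fell by 0.51 after T4+T3 (adjusted p = 0.00458). Nr1i2, the pregnane X receptor that drives Cyp3a genes, had 0.23 in vehicle against control (adjusted p = 0.197) and -0.27 after T3 (adjusted p = 0.125), and Ahr had -0.05 and -0.15 (adjusted p = 0.851 and 0.533). After T3, 3 of the 35 were higher and 2 lower (14.3% against 6.77% of all genes), after T4+T3 3 and 4 (20% against 15.8%), and after T4 0 (0.41% of all genes) by edgeR, with 5 at an unadjusted p under 0.05.

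Among 10 other targets of CAR and the pregnane X receptor, 1 was higher and 1 lower in vehicle against control, 1 rose and 2 fell after T3, and 1 rose and 4 fell after T4+T3. These were 20%, 30% and 50% of the list, against 9.63%, 6.77% and 15.8% of all genes. Abcc3 averaged 109 CPM in controls, 364 in vehicle, 213 after T4, 112 after T3 and 82.4 after T4+T3. It was higher in vehicle by 1.74 (adjusted p = 9.36e-05) and fell by 1.70 after T3 (adjusted p = 1.05e-04) and 2.14 after T4+T3 (adjusted p = 7.12e-07). Papss2, which makes the donor for sulfation, was lower by -0.37 in vehicle and rose by 0.30 and 0.35.

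Of 20 genes for electron supply, haem synthesis and turnover and epoxide hydrolysis, 2 were higher and 1 lower in vehicle against control, 2 fell after T3, and 3 rose and 5 fell after T4+T3. These were 15%, 10% and 40% of the list, against 9.63%, 6.77% and 15.8% of all genes. Por had 0.21 in vehicle against control (adjusted p = 0.211), 0.02 after T3 and -0.24 after T4+T3 (adjusted p = 0.0898). Alas1, the first enzyme of haem synthesis, averaged 184 to 240 CPM in the 5 groups and was not called. Ephx2, an epoxide hydrolase that acts on the epoxides of Cyp2c enzymes, was higher in vehicle by 0.33 and fell by 0.40 and 0.49 (adjusted p = 0.0164, 0.00501 and 1.71e-04). Cyb5a, an electron donor to P450s, fell by 0.29 after T3 and 0.35 after T4+T3.

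Many of the P450 genes are known for zonal expression in the lobule, so zonal genes were read beside them. The perivenous genes Glul, Rhbg, Lgr5 and Lect2 were lower in vehicle than in control and rose after T4+T3, and Oat fell after T4+T3. Rhbg, an ammonia transporter, was lower by -1.62 and rose by 1.96 (adjusted p = 3.64e-04 and 8.63e-06). Of 11 periportal genes, 1 was higher and 2 lower in vehicle, and 2 rose and 2 fell after T4+T3 (27.3% and 36.4% of the list, against 9.63% and 15.8% of all genes). Sult5a1, a sulfotransferase, rose by 4.13 after T3 and 4.79 after T4+T3 (adjusted p = 4.41e-04 and 1.51e-05). The perivenous P450s Cyp2e1 and Cyp1a2 were not called in vehicle against control.

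Of 9 members known as female-biased in adult liver, 4 were lower in vehicle than in control and rose after T3 and T4+T3. Of all genes 4.71% were lower in vehicle, and 3.53% and 7.33% rose after T3 and T4+T3. The 4 were Cyp3a16, Cyp3a41a, Cyp3a41b and Cyp3a44, close copies on chromosome 5, of which Cyp3a41a and Cyp3a41b are best read as a pair. Cyp2c40 of the 9 fell after T3 and after T4+T3, and Cyp2a4, Cyp2b9, Cyp2b13 and Cyp2c69 were not called. Cyp2d9, the only male-biased member listed, went the opposite way to those 4. With sex in the fit Cyp3a44 and Cyp3a41a were still called in these 3 comparisons.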

How the data were processed

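Counts per gene were deposited by the authors as 1 table of 43629 genes for 31 libraries, with no normalization. Per the labels' protocols, total RNA gave stranded TruSeq mRNA libraries. Per the submitters' processing notes, bcl2fastq, Trimmomatic, BWA 0.7.10 and DESeq were used. Those notes name a human build, while the column names in the file header name mm10. The counting tool, its strand setting and any removal of duplicates are not given in the sources used here. The lowest deposited count is 1 in all 31 columns, and 50.1% of values equal it.

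Members and gene lists were chosen with earlier results of these data known. Genes named were the up to 6 members called in each direction with the smallest adjusted p in each of 5 comparisons, genes with textbook roles and the 5 highest per kilobase. Beside the genes most like a member, which followed a rule of their own, members beyond this rule (such as Cyp2c65, Cyp2c69, Cyp2d10 and Cyp3a59) were chosen after their values were seen.

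Deposited counts entered edgeR 4.0.16 (R 4.3.3; TMM, filterByExpr, glmQLFit and glmQLFTest) in 1 fit of 31 libraries with 1 mean per group, giving 17057 genes. The p-values were adjusted by Benjamini and Hochberg over all of them, with a threshold of 0.05. CPM are scaled by TMM. Intervals are 95% normal intervals from the SE. The script was tested on simulated data. Of 84 pairs of libraries within groups, 0 held identical counts, and chi-square per degree of freedom was 2.90 or more. The labels number the animals but give no litter, so p-values measure the spread between these pups. DESeq2 1.42.0, other scalings, filters, covariates, corrections and samples were alternatives. Gene positions and exonic lengths come from GENCODE M21, which matched 97.5% of gene IDs, and promoters from RefSeq (GRCm38.p6). Acinar and muscle means used the fixed marker lists, with 5 CPM as the limit. The ceiling correction assumed a limit of 2 counts per base.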

Additional observations from a re-analysis of the deposited data

Results flagged for a closer look

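Of 175 gene and group pairs examined for 35 named members, 7 had 1 library farther from the rest than Dixon's limit at 95%, while chance gives about 1 in 20. Vehicle animal 67 was high in Cyp3a16 (179 CPM, the others 23.6 to 44.7) and Cyp3a44 (44.9 CPM, the others 17.3 to 21.01). Vehicle animal 55 was high in Cyp2b10 (42.0 CPM, the others 1.21 to 2.76). Control animal 47 was high in Cyp2c44 (187 CPM, the others 132 to 148) and low in Cyp2d26 (350.1 CPM, the others 365 to 370). T4+T3 animal 72 was high in Cyp2c38 (1.60 CPM, the others 0.334 to 0.676), and animal 85 in Cyp3a16 (268 CPM, the others 195 to 224).

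The T4 effect on Cyp3a44 differed between pups with and without T3 by -2.16 on the log2 scale (SE 0.36, adjusted p = 0.0157, edgeR). Adding T4 to vehicle gave 1.93 (adjusted p = 4.75e-04, edgeR), a call lost in 2 of 27 other settings. T4+T3 and T3 pups had means of 145 and 170.1 CPM. The difference of -2.16 was not computed in other settings.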

How the results depend on the processing

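No paired analysis was possible because each animal number occurs in 1 group only. For 59 calls of a member in a comparison, 1493 values under other settings were computed: 1149 stayed called in the same direction, 344 kept the direction without a call, and 0 changed direction. The 8 calls that stood in every setting run were Cyp2c67 and Cyp3a44 after T3, and Cyp2c38, Cyp2c67, Cyp2d9, Cyp2d12, Cyp2r1 and Cyp3a44 after T4+T3, and 35 of 59 stood without any 1 library. The causes of the changes below were not tested, but the restricted sets hold fewer libraries.

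Among animals 54 to 85 the members called numbered 0 in vehicle against control, 0 in T4, 2 in T3 and 8 in T4+T3 against vehicle, and 0 in T4 against control. Without the 12 libraries with acinar or muscle genes they numbered 5, 0, 2 and 7 in the same 4 comparisons, 0 in T4 against T3 and 1 in T4 against control. For T3 against vehicle (15), 8 were called with no filter on low counts, 6 with only those 2 groups fitted, 8 with sex and 7 with the log2 library total as a covariate. That covariate gave 14 for T4+T3 against vehicle (24). For T4 against vehicle (2), 1 was called with no filter, 1 with a mean of at least 5 CPM, 1 with sex as a covariate, 1 with 1 subtracted from every count and 4 by DESeq2. For T4 against T3 (1), 2 were called with scaling by library total, 2 with a mean of at least 5 CPM, 2 with either ceiling correction, 2 without the 4 animals of differing sex labels and 4 by DESeq2. DESeq2 called 1 in T3 against control. Leaving out 1 library gave 7 to 13 calls in vehicle against control, 1 to 3 in T4, 8 to 19 in T3 and 18 to 24 in T4+T3 against vehicle, 1 to 3 in T4 against T3, 1 to 5 in T4 against control and 0 to 1 in T3 against control. Without T3 animal 62, 3 members were called in T4 against T3 and 1 in T3 against control. No scaling moved the median of all genes by over 0.1. The ceiling correction per transcript base and the set without the 4 animals were added after seeing the data. Depth limits Cyp2c38 and Cyp3a57, with 1 to 6 and 17 to 26 counts in controls.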
